A study of Rattus norvegicus with 13 samples.

Results

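Immediate early transcription factors were examined in fat tissue from 13 female rats of the Sprague Dawley strain, a group of 10 genes chosen by name (Egr1, Egr2, Egr3, Fos, Fosb, Fosl1, Jun, Junb, Atf3 and Nr4a1) and read from the platform's probe annotation, taking the brightest probe where a gene had several. Of the 10 genes, 9 were measured, each by 1 probe, among 14506 genes in all, and Fosb was not analysed here, since the annotation used lists no probe under its symbol. Each rat gave 1 array. There were 7 daughters of control fathers, which ate standard chow with 9% fat, and 6 daughters of fathers fed pellets with 43% fat. Mating took place when the fathers were 15 weeks old, the mothers ate chow, all daughters were weaned onto chow at 3 weeks, and the fat was taken at 14 weeks, so no daughter ate the high-fat diet. The labels give no fat depot, father or litter, and p-values measure only the spread between these daughters, some of which may share a father. Daughters are named here by their label numbers, which fall between 619 and 631 (3 control and 4 high-fat) or between 656 and 664 (4 control and 2 high-fat). The sources used here do not say what the 2 number ranges stand for.

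Immediate early genes are transcribed within minutes of a stimulus to a cell, without need for newly made protein, and their messages are short-lived. The Egr proteins are zinc finger factors that bind GC-rich sites. Fos and Jun proteins pair through leucine zippers to form the factor AP-1, Atf3 is a stress-induced relative that also pairs with Jun proteins, and Nr4a1 is an orphan nuclear receptor of the same early wave. In cells, growth factors act on many of these genes through serum response factor at CArG boxes, and cyclic AMP acts through CREB at cyclic AMP response elements. In fat, the same genes are known to respond to adrenergic drive, insulin and the handling of tissue.

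Promoter sequences were taken from RefSeq (build GRCr8) for the 250 bases before the gene start, and 6 of the 10 genes had an entry. Egr1, Egr2, Junb and Nr4a1 are shown because the level of each correlated with that of Fos across animals, as described further on, and Fosl1 because its level did not. Egr2 passed with Fos by Pearson r (0.65, adjusted permutation p = 0.032) but not by Spearman rho (0.53, adjusted permutation p = 0.12). Egr1 and Egr2 did not pass as a pair with each other (r = 0.46, adjusted permutation p = 0.19). Capitals mark every match, on both strands, to the CArG box, to TGACG, the core of the cyclic AMP response element, and to the Egr site GCGNGGGCG. Each sequence runs 5′ to 3′ along the strand of its gene.
Egr1: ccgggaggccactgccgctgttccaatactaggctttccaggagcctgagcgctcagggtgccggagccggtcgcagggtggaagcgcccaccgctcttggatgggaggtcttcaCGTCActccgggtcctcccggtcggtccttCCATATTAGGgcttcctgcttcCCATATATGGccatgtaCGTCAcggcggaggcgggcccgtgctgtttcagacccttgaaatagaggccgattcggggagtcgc
Egr2: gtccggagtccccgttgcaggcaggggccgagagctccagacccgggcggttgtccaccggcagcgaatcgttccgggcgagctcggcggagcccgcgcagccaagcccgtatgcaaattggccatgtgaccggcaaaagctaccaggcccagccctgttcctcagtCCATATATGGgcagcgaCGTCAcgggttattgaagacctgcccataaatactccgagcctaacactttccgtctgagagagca
Junb: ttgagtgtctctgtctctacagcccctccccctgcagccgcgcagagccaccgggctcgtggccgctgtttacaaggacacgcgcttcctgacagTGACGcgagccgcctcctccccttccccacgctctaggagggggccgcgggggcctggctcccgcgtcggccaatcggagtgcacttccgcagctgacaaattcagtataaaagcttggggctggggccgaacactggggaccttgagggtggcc
Nr4a1: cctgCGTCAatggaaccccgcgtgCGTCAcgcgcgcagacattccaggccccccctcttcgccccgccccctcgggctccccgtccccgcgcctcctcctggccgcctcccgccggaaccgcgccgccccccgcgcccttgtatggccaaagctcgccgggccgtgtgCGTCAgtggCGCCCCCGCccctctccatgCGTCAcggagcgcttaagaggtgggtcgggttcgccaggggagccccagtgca
Fosl1: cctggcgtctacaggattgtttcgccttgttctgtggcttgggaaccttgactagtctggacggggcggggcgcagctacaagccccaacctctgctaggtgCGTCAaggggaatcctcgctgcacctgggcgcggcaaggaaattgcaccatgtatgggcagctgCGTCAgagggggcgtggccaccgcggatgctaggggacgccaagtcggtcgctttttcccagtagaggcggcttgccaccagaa

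The Egr1 window (chr18:26736828-26737077, plus strand) held 2 CArG boxes, at bases -105 to -96 and -83 to -74 from the gene start, and 2 response element cores. The Egr2 window (chr20:21054442-21054691, minus strand) held 1 CArG box at -83 to -74 and 1 core at -66 to -62, the same places as the CArG box and the core of Egr1 that lie nearest its start. Nr4a1 (chr7:134259888-134260137, plus strand) had no CArG box in its window but 4 cores and 1 Egr site. Junb (chr19:40080876-40081125, plus strand) had 1 core, and Fosl1 (chr1:212183635-212183884, plus strand) had 2. None of these windows held the full element TGACGTCA, which contains the core, or the AP-1 site TGANTCA. The remaining entry was that of Fosb, which was not measured and is not shown. Its window held 0 matches to any of these motifs. Over 33469 promoter windows of the same length, 1.5% held a CArG box, 18.2% the core, 1.59% the full element, 6.34% an AP-1 site and 4.29% an Egr site. A match is a description of the letters and not a measured site.

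The deposited values are log2 levels from RMA, and the median of an array lay between 7.66 and 7.72. Precision is limited by how few arrays there were. The adipocyte markers were bright on every array, with Adipoq (adiponectin) between 13.64 and 13.96. Muscle markers were high on 4 arrays, controls 662 and 664 and high-fat 619 and 629, where the mean of 9 skeletal muscle genes was 9.68 to 12.66 against 7.24 to 7.40 on the other arrays. Bulk arrays cannot tell fewer cells of a type from less RNA per cell. No pair of arrays was a near copy.

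Daughters of high-fat fathers had lower mean levels of 8 of the 9 measured factors (9 of 9 with quantile normalization renewed), but no factor passed limma's test. Of all 14506 genes, 42% were lower on average in high-fat daughters. Of the 7253 genes above the median level, 84.4% were higher, and 6 of the 7 factors among them were lower. The difference (high-fat minus control, log2) had a median of -0.21 over the 9 factors and 0.03 over all genes. The median over the factors was -0.35 with array weights, -0.09 with the number range as a term, -0.04 within animals 619 to 631, -0.10 within animals 656 to 664 and -0.10 without control 664. At an adjusted p of 0.05, 0 of 9 factors passed, against 0% of all genes. At an unadjusted p under 0.05, 1 factor was lower, Egr2, against 2.54% of all genes (7.96% in either direction), and an unmoderated linear model also gave 1. With the number range as a term it was again 1 factor, Egr2, against 183 of all 14506 genes that were lower (4.21% in either direction). With array weights, and again without the 3 arrays of smallest standard deviation, 4 factors (Egr2, Egr3, Junb and Atf3) were lower at that level. Of all 14506 genes, 884 and 676 were lower in these settings (15% and 9.62% in either direction). Egr2 lies below the median level of all genes. Of the 7253 genes above it, fitted alone, 20 were lower at an unadjusted p under 0.05 in limma, against 369 of all 14506. The 2.54% is therefore too low a share for genes as dim as Egr2. The groups overlapped for all 9 factors, and 0.0827% of all genes had groups that did not. In the plot of levels by diet and animal number, high-fat and control points overlap for every factor over both number ranges together. Within animals 619 to 631 those of Egr2 do not.

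**Figure D1:**
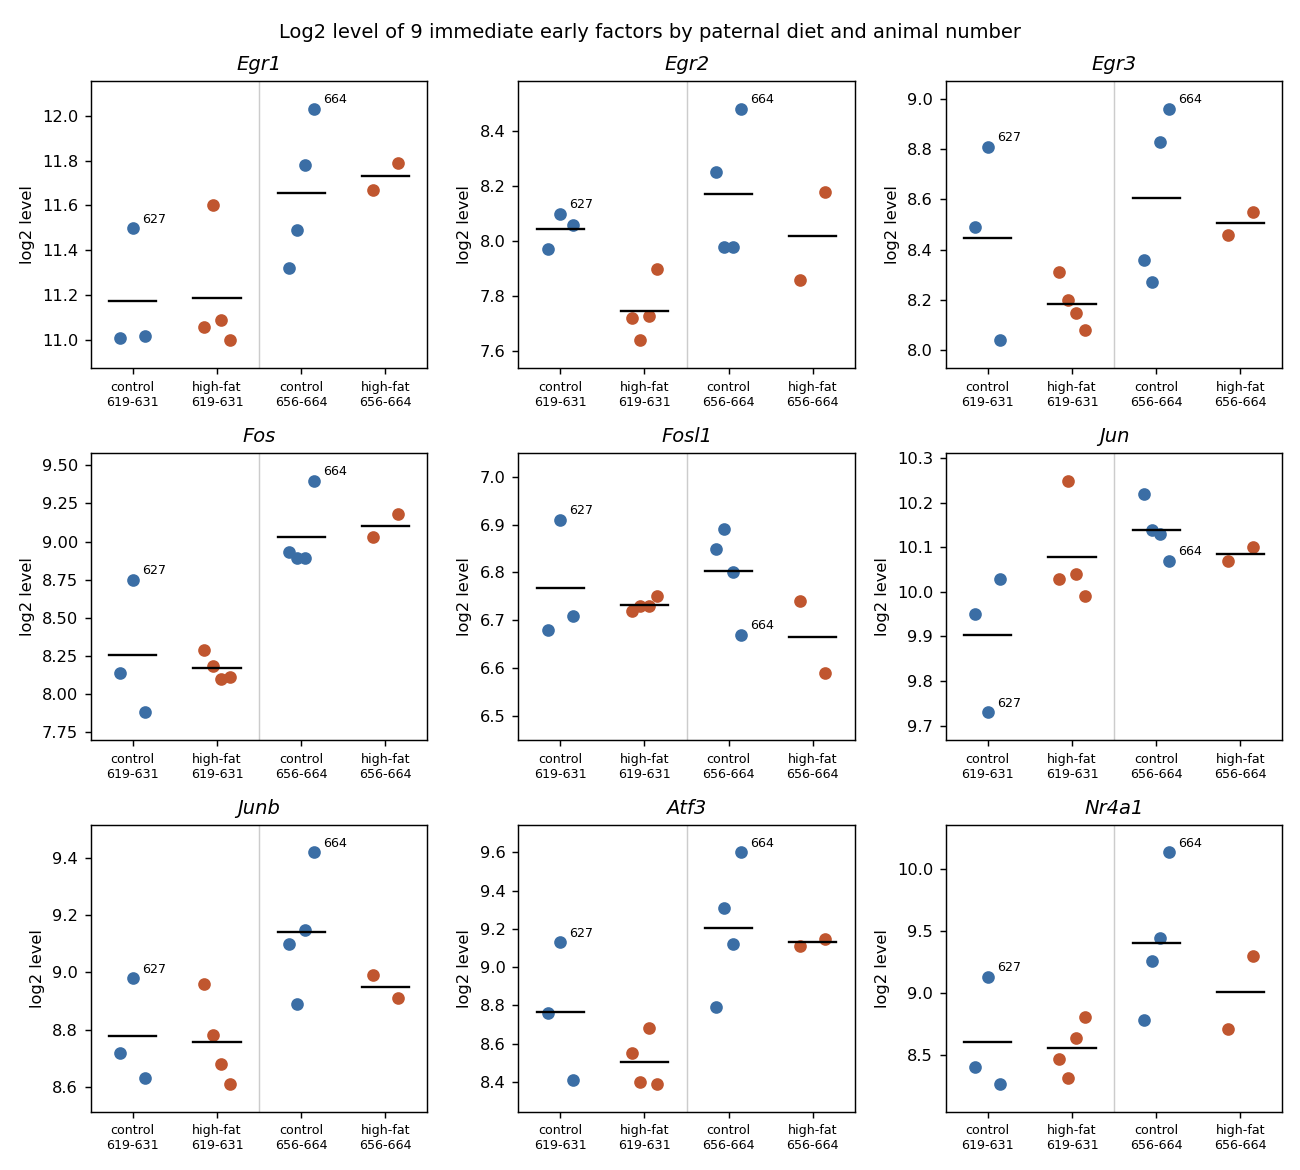
Log2 level (vertical axis, a different span in each panel) of each measured factor in every daughter, split on the horizontal axis by paternal diet and by animal number; blue points are control and orange points high-fat daughters, bars are means, and controls 627 and 664 are marked. Fos lies between 7.88 and 8.75 in animals 619 to 631 and between 8.89 and 9.40 in animals 656 to 664, with no overlap.

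Among the Egr factors, Egr2, which is known from myelinating glia and from the early steps of fat cell differentiation in cultured mouse cells, had the smallest p. Its level ran from 7.97 through a median of 8.06 to 8.48 in control daughters, and from 7.64 through 7.79 to 8.18 in high-fat daughters. High-fat 663 lay inside the control span, and 5 of the 6 high-fat daughters lay below the control median. The difference was -0.28 ± 0.10 (SE), a level 0.82 times that of controls, with an adjusted p of 0.53 in limma and, for Egr2 alone and unadjusted, 0.025 in a two-sided exact permutation test. In animals 619 to 631 alone the controls had 8.05 ± 0.07 (SD, n = 3) and the high-fat daughters 7.75 ± 0.11 (SD, n = 4), without overlap. Among these 7 animals 13.6% of all genes had groups that did not overlap, and Egr2 was the 1 factor of the 9 for which this held. In animals 656 to 664 they had 8.17 ± 0.24 (SD, n = 4) and 8.02 ± 0.23 (SD, n = 2), with overlap. With the number range as a term the difference was -0.23 ± 0.09 (adjusted p = 0.76 in limma).

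Egr1, the founding member of the family, ran from 11.01 through a median of 11.49 to 12.03 in controls and from 11.00 through 11.34 to 11.79 in high-fat daughters. The 2 spans lay almost on top of each other. The difference was -0.08 ± 0.18, and it was 0.04 ± 0.14 with the number range as a term. Egr3, another zinc finger factor of the family, ran from 8.04 through 8.49 to 8.96 in controls and from 8.08 through 8.26 to 8.55 in high-fat daughters. The highest Egr3 levels, in controls 664, 662 and 627, were above every high-fat daughter, while control 631 was the lowest of all. The difference of Egr3 was -0.24 ± 0.14 (adjusted p = 0.53 in limma).

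Of the AP-1 genes, Fos, which binds DNA as a partner of a Jun protein, ran from 7.88 through a median of 8.89 to 9.40 in controls and from 8.10 through 8.24 to 9.18 in high-fat daughters. The 2 medians stood apart, yet each group held both high and low animals, and the high animals were those numbered 656 to 664. The difference of Fos was -0.21 ± 0.25 over all arrays and -0.01 ± 0.13 with the number range as a term. Junb, an AP-1 partner that is induced together with Fos, ran from 8.63 through 8.98 to 9.42 in controls and from 8.61 through 8.84 to 8.99 in high-fat daughters. Its difference was -0.16 ± 0.12, and -0.09 ± 0.09 with the number range as a term. Neither gene passed (adjusted p of 0.68 and 0.55 in limma).

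Jun was the only measured factor with a higher mean in the high-fat group. It ran from 9.73 through 10.07 to 10.22 in controls and from 9.99 through 10.06 to 10.25 in high-fat daughters, with a difference of 0.04 ± 0.07 that was -0.01 when quantile normalization was renewed. Fosl1, which encodes the Fos relative Fra-1, ran from 6.67 through 6.80 to 6.91 in controls and from 6.59 through 6.73 to 6.75 in high-fat daughters, a difference of -0.08 ± 0.05. Jun and Fosl1 varied least of the 9 factors, with a standard deviation over all arrays of 0.13 for Jun and 0.09 for Fosl1. Sry, a Y-linked gene that these females lack, read 6.38 to 6.62 on its own probe, and whether the Fosl1 probe stood above background was not assessed.

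Atf3 and Nr4a1 had the largest differences of the 9 factors by size over all arrays, without passing, whereas with the number range as a term Egr2 had the largest. Atf3 ran from 8.41 through a median of 9.12 to 9.60 in controls and from 8.39 through 8.62 to 9.15 in high-fat daughters. Nr4a1, which in muscle and fat is known to respond to adrenergic signals, ran from 8.27 through 9.13 to 10.13 in controls and from 8.32 through 8.68 to 9.30 in high-fat daughters. In both genes the spans overlapped and control 664 was the highest of all 13 animals. The difference of Atf3 was -0.30 ± 0.18 and that of Nr4a1 -0.35 ± 0.26, with adjusted p of 0.53 and 0.55 in limma. With the number range as a term they were -0.18 ± 0.14 and -0.20 ± 0.21. Without control 664 they were -0.21 and -0.17, and without the 4 arrays high in muscle markers -0.05 ± 0.20 and -0.03 ± 0.24.

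The level of an immediate early factor varied from animal to animal far more for some members than for others. Standard deviations over the 13 arrays were 0.54 for Nr4a1, 0.50 for Fos, 0.39 for Atf3, 0.35 for Egr1, 0.30 for Egr3 and 0.23 for both Egr2 and Junb. In that order they were larger than those of 98.0%, 97.6%, 95.0%, 93.4% and 89.7% of all genes, and of 81.0% for Egr2 and 80.5% for Junb. Those of Jun and Fosl1 were larger than only 34.9% and 11.5%. The mean level of the 9 factors was lowest in control 631 (8.56) and highest in control 664 (9.42).

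Most of the factors rose and fell together across the 13 animals. Of the 36 pairs of measured factors, 19 correlated at an adjusted p under 0.05 in a permutation test with 100000 resamples, adjusted over the 36 pairs, and all 19 were positive. By Spearman rho 14 pairs passed the same test, and the median rho was 0.53. The pairs that passed by r and not by rho were Egr2 with Fos, Junb and Nr4a1, and Nr4a1 with Egr1 and Junb. The median Pearson r over the 36 pairs was 0.63, against 0.04 over all pairs of the 14506 genes. An r above 0.7 was found in 16 of the 36 pairs (44.4%) and in 7.27% of all gene pairs. The 19 pairs were drawn from Egr1, Egr2, Egr3, Fos, Junb, Atf3 and Nr4a1, which form 21 pairs among themselves, and 0 of the 15 pairs with Jun or Fosl1 passed. Points on one array share its RNA and its scan, and none of these values says which gene leads.

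Fos and Atf3 were the closest pair, with r = 0.89 (permutation p = 0.00017, adjusted 0.00204) and rho = 0.79 (permutation p = 0.00227, adjusted 0.0165), and r was 0.83 without the 2 animals farthest from the Fos median. Over the 19 pairs, r without the 2 farthest animals ran from 0.30 to 0.83. Among the 14505 other genes, Atf3 had the highest r with Fos, and Fos had the highest r with Egr1 (0.86), with Junb (0.85) and with Atf3. For Nr4a1 the gene with the highest r was Atf3 (r = 0.87, permutation p = 5e-05, adjusted 0.0018; rho = 0.78, permutation p = 0.00231, adjusted 0.0165). Egr3 was closest to Junb among the factors (r = 0.82, rank 3 of all genes) and Egr2 to Nr4a1 (r = 0.70, rank 27), a pair whose r was 0.36 without the 2 farthest animals. For 5 of the 9 factors the most similar of all other genes was itself an immediate early factor. The best partner of Jun among the factors ranked 974 and that of Fosl1 ranked 5575.

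The correlations were smaller once the number ranges were taken into account. With the mean of each range removed, the median r of the 36 pairs was 0.42 and 8 pairs passed the permutation test. With both group and range means removed it was 0.29 and 10 pairs passed, counted without regard to sign. There 22 of the 36 pairs had a positive r, against 29 with no means removed. In both settings the permutations made no allowance for the means removed, so these p-values lean too small. Without the 4 arrays high in muscle markers the median r was 0.45 and 0 pairs passed, with 5 at an unadjusted p under 0.05. Of the 19 pairs, 7 were among the 8 found with range means removed, which included Egr3 with Fos (r = 0.78), Egr3 with Junb (0.77), Atf3 with Nr4a1 (0.75) and Fos with Atf3 (0.75). The eighth was a negative one, Jun with Atf3 (-0.74). Inside animals 619 to 631 the median r was 0.46, and inside animals 656 to 664 it was 0.52. With 7 and 6 arrays, 0 pairs passed in exact permutation tests inside either range, with smallest adjusted p of 0.071 and 0.30, while 7 and 3 pairs had an unadjusted p under 0.05. Of the 19 pairs, 18 kept a positive r in animals 619 to 631, the exception being Egr2 with Junb (-0.03), and 19 did in animals 656 to 664 (0.37 to 0.87). Without control 664, the animal with the highest level of most factors, 6 pairs passed and the median r was 0.42.

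**Figure D2:**
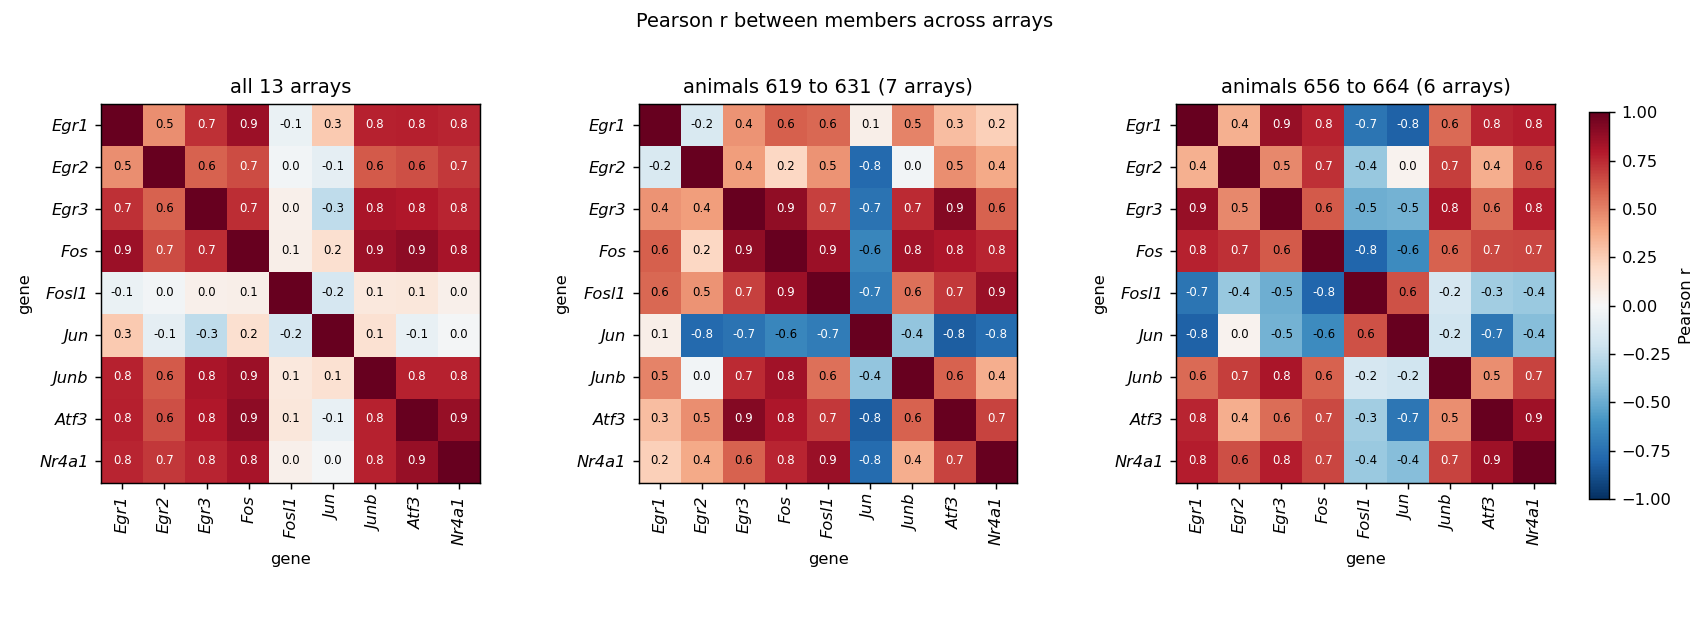
Pearson r between each pair of measured factors across all 13 arrays (left), across animals 619 to 631 (middle) and across animals 656 to 664 (right); the colour scale and the numbers in the cells give r, rounded to 1 decimal. Fos, Atf3, Egr3, Junb and Nr4a1 stay positive with each other in all 3 panels, whereas Jun turns negative with most factors inside each range.

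Jun, which pairs with Fos in AP-1, had an r of 0.16 with Fos and a rho of 0.43 (adjusted permutation p of 0.86 and 0.23). Over all arrays its r with the other factors ran from -0.26 (Egr3) to 0.26 (Egr1). Without the 2 animals farthest from the Jun median, r was 0.53 with Junb, 0.43 with Atf3 and 0.40 with Nr4a1. Over all arrays these were 0.15, -0.07 and -0.02. For its other pairs, where the other gene set which animals were left out, r ran from -0.51 (Egr3) to 0.39 (Fosl1). With the range means removed, all 8 r values of Jun were negative. Inside animals 619 to 631, 7 of the 8 were negative, with the lowest at -0.82 for Atf3, and inside animals 656 to 664, 6 of the 8 were. Control 627 had the lowest Jun of all animals (9.73) and the highest Fos (8.75), Egr3 (8.81), Atf3 (9.13) and Nr4a1 (9.13) of animals 619 to 631. Fosl1 had a positive r with 7 of 8 factors in animals 619 to 631 and a negative r with 7 of 8 in animals 656 to 664. Its values spanned only 6.59 to 6.91 in all, and no pair with Fosl1 passed.

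The 2 number ranges were then compared directly, with paternal diet as a term in limma, a comparison chosen after the values were seen. Animals 656 to 664 had higher means of 8 of the 9 factors, against 43.1% of all genes, and the median difference was 0.29 over the factors and -0.02 over all genes. No factor passed, with 0 of 9 at an adjusted p of 0.05 against 0% of all genes. At an unadjusted p under 0.05, 5 of the 9 factors were higher (Fos, Atf3, Egr1, Junb and Nr4a1), against 2.79% of all genes (5.46% in either direction), and an unmoderated linear model also gave 5. All 5 lie above the median level of all genes. Of the 7253 genes above it, fitted alone, 48 were higher at an unadjusted p under 0.05 in limma, against 404 of all 14506. Among those 7253 genes 80.3% had lower means in animals 656 to 664. The shares over all genes are therefore not those of genes of this level. The plot of fitted differences sets both comparisons side by side.

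**Figure D3:**
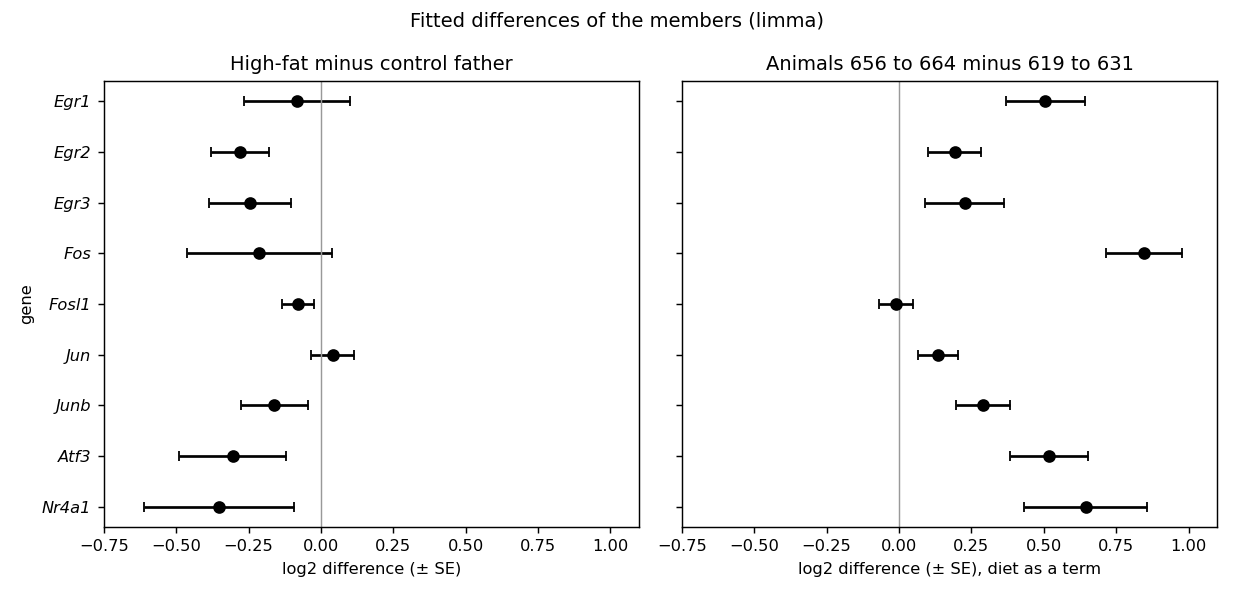
Fitted log2 difference (horizontal axis) of each measured factor between high-fat and control daughters (left) and between animals 656 to 664 and 619 to 631 with diet as a term (right); points are limma estimates and bars are standard errors. Nr4a1 has the lowest estimate on the left (-0.35) and Fos the highest on the right (0.85).

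Fos had the smallest p of all 14506 genes for the number range. Its level was 8.21 ± 0.27 (SD, n = 7) in animals 619 to 631 and 9.06 ± 0.20 (SD, n = 6) in animals 656 to 664. Every animal of the second range lay above every animal of the first, which was true of 0.062% of all genes. The difference was 0.85 ± 0.13, a level 1.80 times as high, with an adjusted p of 0.30 in limma. The two-sided exact permutation test for Fos alone, which has no diet term, gave an unadjusted p of 0.00117 over 1716 arrangements. In high-fat daughters alone Fos was 8.17 ± 0.09 (SD, n = 4) and 9.11 ± 0.11 (SD, n = 2), and in control daughters alone 8.25 ± 0.44 (SD, n = 3) and 9.03 ± 0.25 (SD, n = 4).

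Atf3 followed at rank 15 of all genes, with 8.62 ± 0.27 (SD, n = 7) and 9.18 ± 0.26 (SD, n = 6) and a difference of 0.52 ± 0.14. Egr1, at rank 25, had 11.18 ± 0.25 and 11.68 ± 0.25 and a difference of 0.50 ± 0.14. Junb, at rank 72, differed by 0.29 ± 0.09, and Nr4a1, at rank 88, by 0.64 ± 0.21. For Atf3, Egr1, Junb and Nr4a1 all 6 animals of the second range lay above the median of the first, and the spans overlapped. The highest animal of the first range was control 627 for Atf3, Junb and Nr4a1 and high-fat 620 for Egr1. The adjusted p in limma was 0.69 for all 4. Egr2 (0.19 ± 0.09), Egr3 (0.23 ± 0.14), Jun (0.13 ± 0.07) and Fosl1 (-0.01 ± 0.06) had larger p.

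Of 28 alternatives run for the number range, Fos passed in 2. Within the 6 high-fat daughters, Fos (0.94 ± 0.09, adjusted p = 0.015 in limma) and Atf3 (0.62 ± 0.10, adjusted p = 0.041) passed, among 1.54% of all genes that did, with 2 animals in one arm. Within the 7 control daughters 0 genes passed (unadjusted 231), and Fos differed by 0.77 ± 0.21 and Atf3 by 0.44 ± 0.22. Without control 627, Fos was the only gene to pass (0.98 ± 0.10, adjusted p = 0.0059 in limma, 0.00689% of all genes). The difference between the diet effects in the 2 ranges, tested as an interaction in limma, had an adjusted p of 0.999 for each factor, and 0 of 9 factors against 3.47% of all genes had an unadjusted p under 0.05.

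Other genes of the early response were read from lists for comparison, with no set test. Of 10 relatives and co-repressors, 0 passed for diet or for number range, and the median differences were -0.04 and -0.003. Nr4a3 and Nr4a2, the other orphan receptors of the Nr4a1 family, were higher in animals 656 to 664 by 0.45 ± 0.24 and 0.29 ± 0.17, without passing. Nab2, a co-repressor that Egr1 induces and that restrains it, differed by -0.09 ± 0.07 for diet, its relative Nab1 by 0.13 ± 0.11 and the Fos relative Fosl2 by -0.06 ± 0.07. For the number range Nab1 differed by -0.17 ± 0.10. Of 36 other immediate early genes, 0 passed, and the median difference was -0.003 for diet and 0.03 for the number range. For the number range, 4 of these 36 had an unadjusted p under 0.05, all higher in animals 656 to 664, against 2.79% of all genes higher and 5.46% in either direction. They were Dusp1, a phosphatase that switches off MAP kinases (0.31 ± 0.09), Ptgs2, the inducible cyclooxygenase (0.43 ± 0.14), Ccn1, a matricellular protein (0.36 ± 0.13), and Csrnp1, a nuclear protein (0.24 ± 0.10), the last named after its value was seen. For diet, Ptgs2 was the member with the smallest p (-0.37 ± 0.17, adjusted p = 0.53 in limma), and Klf10 and Ier5 followed with 0.13 ± 0.06 and 0.09 ± 0.05.

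Genes that act upstream of the early response were read in the same way. Of 19 measured kinases and factors of the MAP kinase, serum response factor and CREB routes, 16 had a higher mean in high-fat daughters (median 0.05) and 18 a lower mean in animals 656 to 664 (median -0.07), and 0 passed in either comparison. Over all genes 58% were higher for diet and 56.9% lower for the number range. Over the 7253 genes above the median level, where all 19 lie, these shares were 84.4% and 80.3% and the medians 0.09 and -0.07 (a reading added after the values were seen), so the medians of the list are near those of genes of its level. Mapk14, which encodes the stress kinase p38 alpha, had 0.13 ± 0.05 for diet, Map2k2 0.11 ± 0.05 and Mapk9, a JNK kinase, 0.14 ± 0.07. For the number range, Braf had -0.19 ± 0.07, Elk3 -0.20 ± 0.08 and Mapk14 -0.09 ± 0.05. Of 17 known targets of AP-1 or Egr factors, 0 passed, with medians of -0.06 for diet and -0.06 for the number range. The chemokine Ccl2 differed by -0.34 ± 0.15, Mmp9 by -0.16 ± 0.07 and Fgf2 by 0.27 ± 0.15 for diet. For the number range Il6 had 0.29 ± 0.10, Ccnd1 -0.25 ± 0.12 and Ccl2 0.24 ± 0.15.

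Heat shock genes, another set that stress raises quickly, had medians of 0.01 for diet and -0.02 for the number range over 11 genes, and 0 passed. The members with the smallest p were Hspe1 (0.11 ± 0.07), Hsf1 (0.10 ± 0.09) and Hspd1 (0.07 ± 0.09) for diet, and Hspb1 (-0.40 ± 0.17), Hsf1 (-0.14 ± 0.09) and Hsp90aa1 (-0.20 ± 0.13) for the number range. Glucocorticoid-responsive genes had a median of 0.01 for diet and of 0.34 for the number range, where 7 of 8 were higher and 0 passed. Tsc22d3 (0.46 ± 0.15) and Fkbp5 (0.57 ± 0.23), both direct targets of the glucocorticoid receptor, had the smallest p, and Mt1 followed (0.24 ± 0.13). For diet Mt1 (-0.22 ± 0.13), Mt2A (-0.16 ± 0.18) and Klf9 (0.09 ± 0.10) did. The plot of differences by gene list sets these beside the factors.

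**Figure D4:**
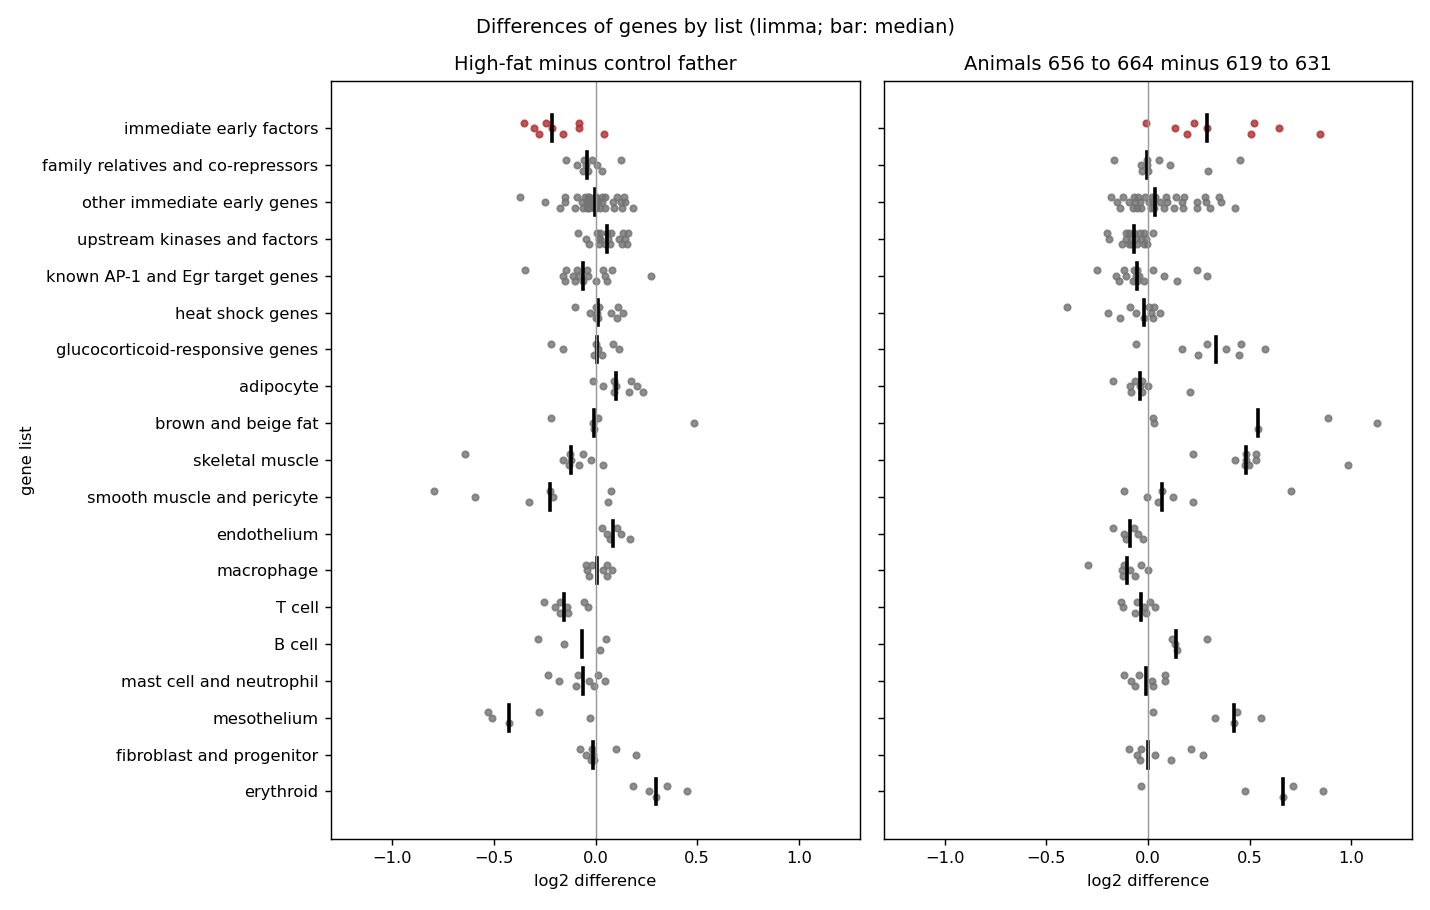
Fitted log2 difference (horizontal axis) of each gene of each list (vertical axis) for high-fat minus control daughters (left) and for animals 656 to 664 minus 619 to 631 (right); red points are the immediate early factors, grey points other genes, and black bars list medians. The factors have medians of -0.21 and 0.29, the mesothelium list -0.42 and 0.42 and the erythroid list 0.30 and 0.66.

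Some lists of markers of other cells had differences in the same direction as the factors. Over all genes, 42% had lower means in high-fat daughters and 43.1% higher means in animals 656 to 664. For diet, all 5 measured mesothelium markers had lower means in high-fat daughters (median -0.42), with the mean level of the list between 7.41 and 9.19 in controls and between 7.60 and 8.75 in high-fat daughters, and for the number range all 5 were higher in animals 656 to 664 (median 0.42). The mean of the mesothelium list was highest in control 664 (9.19), the animal with the highest level of each factor except Jun and Fosl1, and lowest in control 631 (7.41). Other animals did not match in this way. High-fat 619 had a mesothelium mean of 8.75 and a factor mean of 8.68, and high-fat 660 had 7.87 and 8.96. Of 5 erythroid markers, 4 were higher in animals 656 to 664 (median 0.66), with list means of 9.64 to 10.65 there and 9.01 to 9.91 in animals 619 to 631, and the 3 with the smallest p were Slc4a1 (0.48 ± 0.09), Hbb (0.71 ± 0.15) and Alas2 (0.86 ± 0.19). For diet all 5 erythroid markers had higher means in high-fat daughters (median 0.30), while 8 of the 9 factors had lower ones. Medians for endothelium were 0.09 for diet and -0.09 for the number range, and those for macrophages were 0.01 and -0.11. All 8 T cell markers had lower means in high-fat daughters (median -0.16, list means of 7.38 to 8.07 in controls and 7.36 to 7.69 in high-fat daughters). All 9 skeletal muscle markers (median 0.48) and all 5 brown and beige fat markers (median 0.54) had higher means in animals 656 to 664. Of 7 smooth muscle and pericyte markers, 5 had lower means in high-fat daughters (median -0.22) and 5 higher means in animals 656 to 664 (median 0.07). All 4 measured B cell markers had higher means in animals 656 to 664 (median 0.14), with Cr2 at 0.29 ± 0.10. Of 9 adipocyte markers, 8 had higher means in high-fat daughters (median 0.10) and 8 lower means in animals 656 to 664 (median -0.04). Their list means were 12.13 to 12.41, far above the array medians. Over the 7253 genes above the median level, 84.4% were higher in high-fat daughters and 80.3% lower in animals 656 to 664. The adipocyte counts are near those shares, and the endothelium medians are near the medians of those genes (0.09 and -0.07). None of the marker genes passed in limma, and the part of these cells in the levels of the factors was not tested. With the level of the skeletal muscle markers as a term the number range difference of Fos was 0.84 ± 0.14, and it was 0.80 ± 0.16 when the 4 arrays high in muscle markers were left out. Leaving out those 4 arrays took the number range difference of Egr1 from 0.50 to 0.30 ± 0.14 and that of Egr3 from 0.23 to 0.07 ± 0.15, while Atf3 had 0.42 ± 0.16, Junb 0.22 ± 0.09 and Nr4a1 0.47 ± 0.20. Without those 4 arrays the median diet difference over the 9 factors was -0.03, and those of Egr1 and Fos were 0.27 ± 0.16 and 0.11 ± 0.29.

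The genes whose pattern over the 13 animals was most like the mean of the 9 factors, each scaled to the same spread, were sought among all other genes. The highest r belonged to Fgf12, an intracellular relative of fibroblast growth factors (0.85), Mfap4, a protein of elastic microfibrils (0.83), and Glrb, a glycine receptor subunit (0.83). They were followed by Large2 (0.80), Or12j4 (0.80), Fcnb (0.80), Timd2 (0.78), Cabs1 (0.77), Ptgs2 (0.77) and Aadat (0.77). Ptgs2 was the only one of these 10 that stood in the list of other immediate early genes. The lowest r belonged to Ns5atp4-ps3 (-0.87), Tp53i13 (-0.83), Umps (-0.82), Hprt1 (-0.82) and Abhd14a (-0.81). With the range means removed the r of Fgf12 was 0.59 and that of Large2 0.83, and the gene at the top was then Cyp2c11 (0.88), named after its value was seen, followed by Hdc, the histamine-forming enzyme of mast cells (0.85). These r values describe 13 arrays and carry no test.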

How the data were processed

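Fat RNA of 13 rats was profiled on Affymetrix arrays, 1 array per animal, from biotin-labelled cRNA. The authors deposited log2 values of 29214 probes, made with RMA and Partek per the submitters' processing notes, though no source used here gives versions, order of steps or filters. Values of 3.24 to 14.54 fit the log2 scale of RMA output. No scanner files were used, so background per probe was not assessed. Probes were named from the platform annotation, 15310 with 1 symbol, 323 with several (not used) and 13581 not listed, which left 14506 genes at the brightest probe of each. Entrez identifiers of 15279 probes matched RefSeq genes of GRCr8 and 0 symbols changed.

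Groups were compared over all genes with limma 3.58.1 (lmFit and eBayes, two-sided, Benjamini-Hochberg) in R 4.3.3, with an adjusted p of 0.05 as threshold and no covariate; the number range was fitted in limma with diet as a term. Single genes were also tested over the 1716 arrangements of the arrays by exact permutation, with no covariate. Correlations used 100000 permutations, or all orders inside a number range. The limma fits and the permutation step of the correlations were tested on simulated data. Fosb had no probe, so 36 pairs were tested, fewer than planned, and the number range comparison and its alternatives were added after the data were seen. Members and gene lists were chosen with earlier results of these data known. All members are named, then the 3 genes with the smallest p of each list described and the 10 most and 5 least similar genes. Alternatives were other normalizations, probe summaries, variance models, covariates and arrays left out. The groups share no animal number.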

Additional observations from a re-analysis of the deposited data

Results flagged for a closer look

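Fosl1 in high-fat daughter 663 read 6.59, the lowest value of that group and farther from its neighbour than Dixon's 95% critical value allows for 6 samples. The other high-fat daughters lay between 6.72 and 6.75. Of 18 group and gene combinations tested, 1 array was singled out in this way, and chance flags about 1 in 20.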

How the results depend on the processing

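For paternal diet, 0 members and 0 of all genes passed under each of the 28 alternatives run and at an adjusted p of 0.1, and the smallest adjusted p of a member was 0.28. The median difference over the members ran from -0.30 to -0.10 with each array left out, the latter without control 664. Differences that changed sign, none past the threshold, were those of Egr1 with the number range as a term (0.037), without the 4 arrays with most muscle signal (0.27), within animals 619 to 631 (0.007) and 656 to 664 (0.075) and with arrays left out (-0.168 to 0.013); those of Fos without the 4 muscle arrays (0.11) and within animals 656 to 664 (0.08); and those of Jun with renewed quantile normalization (-0.008), within animals 656 to 664 (-0.055) and with arrays left out (-0.01 to 0.071). For the number range, all of it added after seeing the data, 2 members and 223 genes passed within high-fat daughters, and with arrays left out 0 to 1 members and 0 to 1 genes did, Fos passing without control 627. The median over the members was 0.50 over genes above the median level, where 2 fewer members were tested, and 0.23 to 0.33 with arrays left out. Fosl1 changed sign without the diet term and in the exact test (both 0.008), without the 4 muscle arrays (0.024), within control daughters (0.033) and with arrays left out (-0.04 to 0.025). Of the 36 pairs, 0 passed without the 4 muscle arrays and inside each number range, where fewer samples were used, 8 with number range means removed, 10 with group and range means removed, and 6 to 20 with arrays left out, the fewest without control 664. By Spearman rho 14 pairs passed. No paired analysis was possible because the groups share no animal number. The number of genes at an unadjusted p under 0.05, 1155 for diet, ran from 407 with the array standard deviation as a term to 2508 without high-fat 660, and that for the number range, 792, from 231 within control daughters to 2216 within high-fat daughters. With each array centred on its median, 1177 genes were higher and 242 lower for diet at that level, against 786 and 369.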
